A study of Mus musculus with 16 samples.

Results

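Fatty acid synthesis and desaturation genes are described here across the kidneys of chow-fed and HFD-fed control and NiPKO mice. The list holds 10 genes of lipogenesis that are known targets of the transcription factor SREBP1 and includes the gene of SREBP1 itself. It was drawn up by gene name with earlier results of these data known. Its counts beside the share of all genes are therefore descriptions. A member was measured where a probe set carried its symbol and no other, which held for 9 of the 10 genes (Srebf1, Acly, Acaca, Acacb, Fasn, Elovl6, Scd1, Fads1 and Fads2), each through 1 probe set, among 22180 genes in all. Scd2, a second stearoyl-CoA desaturase, was not used here because its probe set carries 2 symbols.

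Total RNA of whole kidney from male mice was measured on 16 Affymetrix Mouse Gene arrays, 4 for each of 4 groups. Control and NiPKO mice on chow received a diet with 10 kcal% fat, and control and NiPKO mice on the HFD one with 60 kcal% fat, for 20 weeks by the series' design text. NiPKO mice carried Pax8-rtTA, (tetO-cre)LC1 and floxed PGC-1α alleles, in which DOX induces removal of exons 3 to 5 of PGC-1α along the renal tubule, with the glomerulus spared. DOX at 0.2 mg/ml in sweetened drinking water for 2 weeks from 12 weeks of age is described for the mice without separating the groups. The controls were littermates on a mixed background, and the sources used here give neither the transgenes that they carried nor a statement that they also drank DOX. Recombination was tested by PCR across these exons and was also seen in liver. Samples are called biological replicates without being tied to animals, so whether each is a separate mouse is not stated. In the limma fit of all 4 groups, each p-value rests on the spread among samples of the same group, pooled over the groups. That spread is drawn toward the one typical of all genes. In whole kidney fewer cells of a type and less RNA per cell cannot be told apart. All values are log2 probe set values, in which a difference of 1 is a doubling, and values of different genes are not compared with each other.

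New fatty acids are made in the cytosol from citrate. Acly cleaves citrate to acetyl-CoA, Acaca and Acacb encode the acetyl-CoA carboxylases that turn it into malonyl-CoA, and Fasn builds palmitate from these units. Elovl6 lengthens palmitate to stearate, Scd1 and Scd2 place the first double bond into saturated chains, and Fads1 and Fads2 are the delta-5 and delta-6 desaturases of the polyunsaturated chains. Srebf1 encodes SREBP1, a membrane-bound factor that is escorted from the endoplasmic reticulum, cleaved and sent to the nucleus, where it drives these genes, and in liver polyunsaturated fatty acids are known to lower its activity. In kidney the proximal tubule relies mainly on fatty acid oxidation for energy.

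The promoters of Fasn and of Srebf1 are shown because both genes fell on the HFD in control kidney and sequence next to a start site is where such factors bind. RefSeq windows (build GRCm38.p6) of 250 bases before and 50 bases after a start were found for 7 of the 10 members, in 9 windows, 3 of them for Srebf1. Scd1, Scd2 and Fads1 had no window and were not searched. Of the 250 bases before the start, capitals mark CCAAT or its reverse complement ATTGG, the box bound by NF-Y, a known partner of SREBP, and both genes are transcribed from the minus strand.
Fasn, chr11:120824548-120824797, minus strand: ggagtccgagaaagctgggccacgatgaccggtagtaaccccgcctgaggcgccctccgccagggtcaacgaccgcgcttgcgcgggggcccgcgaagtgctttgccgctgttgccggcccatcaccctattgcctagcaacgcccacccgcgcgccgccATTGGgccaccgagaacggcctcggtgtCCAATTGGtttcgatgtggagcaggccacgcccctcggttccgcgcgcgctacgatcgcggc
Srebf1, the most downstream of its 3 starts, chr11:60210472-60210721, minus strand: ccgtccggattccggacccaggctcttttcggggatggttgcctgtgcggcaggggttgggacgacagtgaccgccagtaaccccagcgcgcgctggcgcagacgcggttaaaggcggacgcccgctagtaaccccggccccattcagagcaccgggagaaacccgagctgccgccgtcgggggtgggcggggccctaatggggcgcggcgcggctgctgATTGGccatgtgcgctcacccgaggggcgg
Fasn held 3 matches, beginning at -90, -62 and -59 from the start, and the last 2 overlap. The Srebf1 window held 1 match at -30, a second Srebf1 window held 1 at -166, and Acacb and Acly held 1 each, at -87 and at 38 bases past the start. A CCAAT match on either strand was present in 37.4% of all 32851 promoter windows of this length. The sterol response element TCACNCCAC and the E-box CACGTG, searched on both strands, were in none of the members' windows and in 1.24% and 7.15% of all windows. Only these exact letters were searched, so a site spelled otherwise would be missed, and their absence does not show that a promoter lacks such sites. A match in letters is a description and not a bound site.

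On the chromosomes, Srebf1, Acaca, Acly and Fasn lie on chromosome 11 by the RefSeq gene table. Fads1 and Fads2 are neighbours on chromosome 19, where the Scd genes also stand together, with Scd4 between Scd2 and Scd1.

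The arrays were alike in overall level, with medians between 5.346 and 5.404 and pairwise correlations between 0.986 and 0.992. The Ppargc1a probe set, for the targeted gene, did not fall in the arrays labelled NiPKO. It read 9.56 to 9.68 in chow control, 9.91 to 10.2 in chow NiPKO, 9.32 to 9.57 in HFD control and 9.96 to 10.1 in HFD NiPKO, which is higher in NiPKO on both diets (limma adjusted p = 0.00258 and 0.00132). The exons under this probe set were not analysed here. Probes beyond the deleted exons would check nothing, so NiPKO means throughout the arrays labelled NiPKO.

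HFD NiPKO replicate 1 stood apart from the other 15 arrays in fat cell genes. The mean of 13 adipocyte genes was 6.78 on it and 5.63 to 6.14 on the others, and 7 of the 13 genes had their highest value there. Ucp1, the uncoupling protein of brown fat, read 7.96 against 4.47 to 5.07 elsewhere. Cidea read 6.09 against 4.18 to 4.53, Plin1 6.34 against 5.24 to 5.67, and Fabp4 10.6 against 9.26 to 10.24, while the adipocyte hormone gene Adipoq stayed at 3.97 to 4.62 on all arrays.

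**Figure D1:**
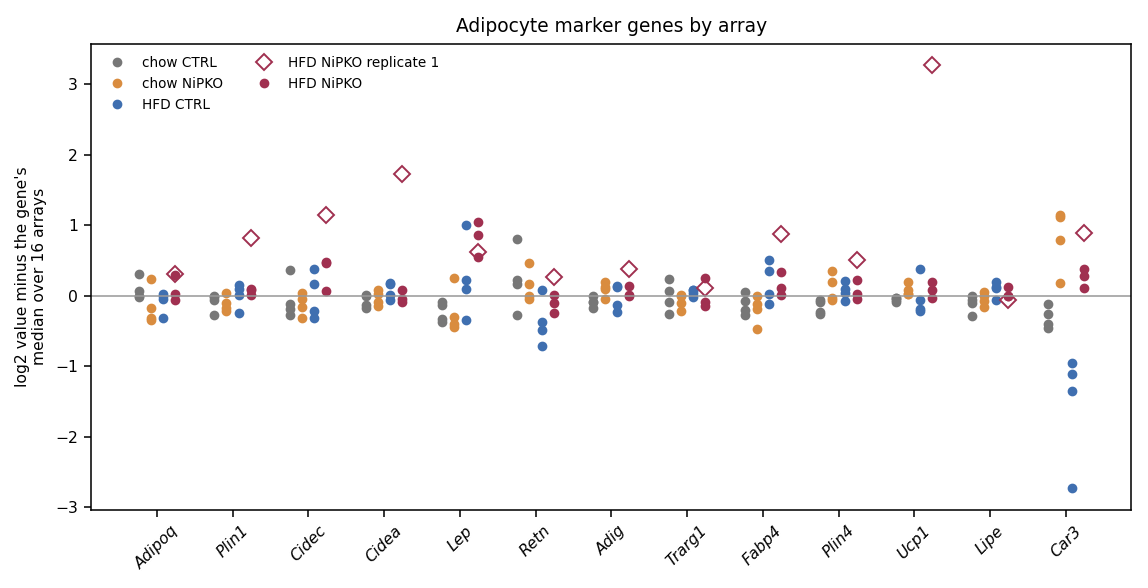
Adipocyte marker genes on each array, as log2 value minus the median of that gene over the 16 arrays, with 4 arrays a group. HFD NiPKO replicate 1 (open diamond) lies above all other arrays for Ucp1, Cidea, Plin1, Cidec and Fabp4, and Car3 also differs between the groups.

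Summed over the 13 genes on the linear scale, the adipocyte level was between 10.8 and 10.98 (log2) in chow control, 11.1 and 11.5 in chow NiPKO, 10.7 and 10.99 in HFD control, and 11.1 and 11.9 in HFD NiPKO. Car3, a carbonic anhydrase abundant in fat cells and also in muscle, carried much of this sum, at 9.08 to 9.43 in chow control, 9.73 to 10.69 in chow NiPKO, 6.81 to 8.59 in HFD control and 9.66 to 10.43 in HFD NiPKO. Without Car3 the summed level was 10.3 to 10.4 in chow control, 10.1 to 10.4 in chow NiPKO, 10.4 to 10.8 in HFD control and 10.5 to 11.3 in HFD NiPKO. Over all 13 genes, Car3 among them, the list median for NiPKO against control on chow was 0.01. HFD NiPKO replicate 1 held the highest value of its group for 7 of the 9 measured members. The members' values that use the array in the fit of all 4 groups are therefore given with and without it, and the part of fat tissue in these results was not tested. The other 8 marker lists, for tubule segments, podocytes, endothelium, leukocytes, adrenal cortex and hepatocytes, had medians between -0.09 and 0.14 for HFD against chow averaged over genotypes, between -0.10 and 0.10 for NiPKO against control on chow, and between -0.10 and 0.18 on HFD. Markers of the labelled tissue were bright, with a mean of 7 proximal tubule genes of 12.1 to 12.3 on all arrays.

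In control kidney the HFD lowered Scd1, Fads1, Fasn and Srebf1. At a limma adjusted p under 0.05, these were 4 of the 9 measured members, against 0.388% of all genes lower by the same rule, and no member was higher. The fold changes were 4.72 for Scd1, 1.63 for Fasn, 1.55 for Fads1 and 1.36 for Srebf1. All 9 members were below 0 and their median log2 fold change was -0.31, while the median of all genes was 0.01.

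Scd1, the delta-9 desaturase that makes oleate, was the member with the widest difference between the diets. It read 11.24, 10.84, 10.86 and 10.52 in the 4 chow control kidneys and 9.15, 8.62, 8.19 and 8.54 in the 4 HFD control kidneys. The lowest chow array stood well above the highest HFD array, so the groups did not overlap. The mean went from 10.9 ± 0.30 to 8.63 ± 0.39 (SD, n = 4), a log2 fold change of -2.24 (SE 0.30, 95% confidence interval -2.89 to -1.59, limma adjusted p = 0.0113).

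Fads1, the delta-5 desaturase that completes arachidonate and eicosapentaenoate, was tight within the groups. Its values were 10.47, 10.48, 10.34 and 10.40 in chow control and 9.85, 9.76, 9.85 and 9.70 in HFD control. Again no HFD array reached a chow array, and the log2 fold change was -0.63 (SE 0.09, limma adjusted p = 0.0119). Fads2, the delta-6 desaturase that acts before it in the same pathway, read 11.69, 11.67, 11.56 and 11.67 in chow control and 11.43, 11.40, 11.52 and 11.34 in HFD control. The Fads2 groups did not overlap either, but at a log2 fold change of -0.23 (95% confidence interval -0.38 to -0.08) the adjusted p was 0.176.

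Fasn, the fatty acid synthase, read 9.27, 9.38, 9.38 and 9.37 in chow control and 8.79, 8.31, 8.76 and 8.73 in HFD control. The chow arrays lay close together and above each HFD array, with HFD control replicate 2 the lowest of all 16. Its log2 fold change was -0.71 (SE 0.12, limma adjusted p = 0.0145). Srebf1, the regulator itself, read 7.34, 7.52, 7.23 and 7.31 in chow control and 7, 6.99, 6.82 and 6.84 in HFD control, again without overlap. It changed by -0.44 on the log2 scale (SE 0.07, limma adjusted p = 0.0148).

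The enzymes before Fasn moved less. Acaca, the carboxylase that supplies malonyl-CoA for synthesis, differed by -0.31 (adjusted p = 0.2002) and its groups overlapped, at 7.15 to 7.48 in chow control and 6.78 to 7.2 in HFD control. Acacb, the mitochondrial-membrane carboxylase whose malonyl-CoA restrains fatty acid oxidation, differed by -0.06 (95% confidence interval -0.30 to 0.19). Acly differed by -0.07 (-0.16 to 0.03) and Elovl6 by -0.01 (-0.23 to 0.20). None of these 4 passed, and the interval of Acly was the narrowest of them.

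At the study's own array thresholds, which ask for a 1.2-fold change and p under 0.05 without adjustment, Acaca joined the 4 genes, giving 5 of 9 members lower, against 2.34% of all genes. Groups that did not overlap, with HFD below chow, were found for 5 of 9 members, the 4 genes and Fads2, against 3.83% of all genes. Fitted on the 2 groups alone, 2 of 9 members kept an adjusted p under 0.05, Scd1 and Fads1. In that fit 0.0631% of all genes passed in either direction. With the methods' t-test, which called none of the genes measured after Benjamini-Hochberg adjustment, no member did, while 6 of 9 members and 11.4% of all genes had an unadjusted p under 0.05. Without chow control replicate 3 the adjusted p of Fasn was 0.052 (log2 fold change -0.70), and without HFD control replicate 3 that of Srebf1 was 0.0665 (-0.41).

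**Figure D2:**
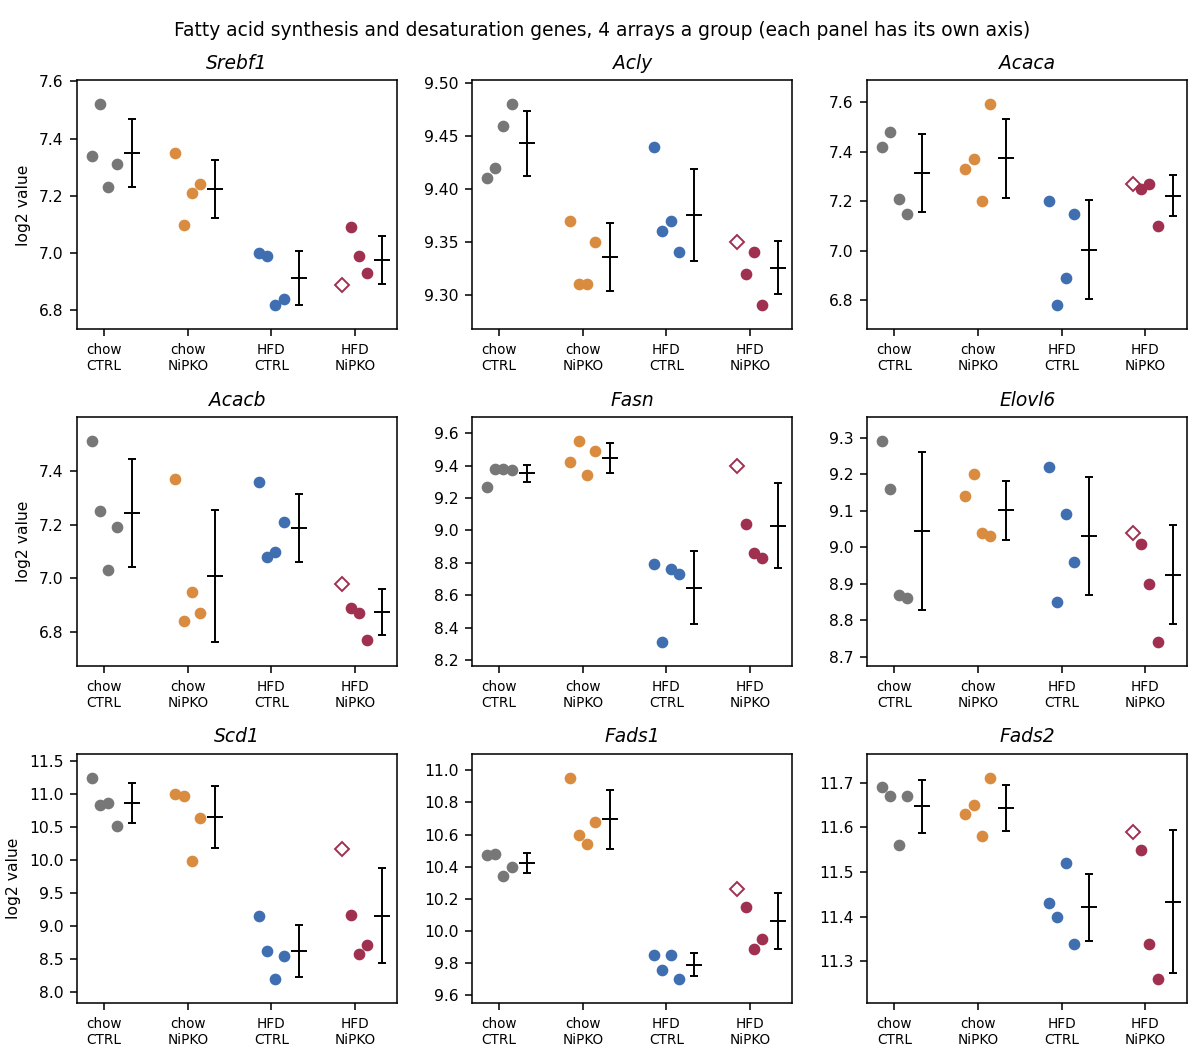
Log2 values of the 9 measured members on each array, with 4 arrays a group and the group mean and SD beside the points. Scd1, Fads1, Fasn and Srebf1 lie lower in HFD control than in chow control on every array, and HFD NiPKO replicate 1 (open diamond) lies at 10.16 for Scd1 and 9.40 for Fasn.

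In NiPKO kidney Fads1 was the member that fell on the HFD with all 4 arrays, and Scd1 and Fasn fell as well when HFD NiPKO replicate 1 was left out. With all arrays, 1 of 9 members was lower at an adjusted p under 0.05, against 0.135% of all genes, and 3 of 9 at the thresholds of the methods, against 2.21%. Without that array, 3 of 9 members were lower at an adjusted p under 0.05, against 0.167% of all genes, and 3 of 9 at the thresholds of the methods, against 2.55%. No member was higher either way, and the median over the members was -0.21 with the array and -0.22 without it, beside medians of all genes of 0.00 in both.

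Fads1 read 10.95, 10.60, 10.54 and 10.68 in chow NiPKO and 10.26, 10.15, 9.89 and 9.95 in HFD NiPKO. The groups did not overlap, and the log2 fold change was -0.63 (SE 0.09, limma adjusted p = 0.00852), or -0.70 without replicate 1 (adjusted p = 0.00507). Without HFD NiPKO replicate 4 it was -0.60 with an adjusted p of 0.0502.

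Scd1 read 11, 10.97, 9.98 and 10.64 in chow NiPKO and 10.16, 9.17, 8.58 and 8.71 in HFD NiPKO. Replicate 1, the array rich in Ucp1 and Cidea transcript, was above chow NiPKO replicate 3, and the other 3 HFD arrays were below all chow arrays. With all arrays the log2 fold change was -1.49 (SE 0.30, 95% confidence interval -2.14 to -0.85, adjusted p = 0.0543). Without replicate 1 it was -1.83 (SE 0.25, -2.36 to -1.29, adjusted p = 0.00614), a 3.55-fold lower level.

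Fasn read 9.42, 9.55, 9.34 and 9.49 in chow NiPKO and 9.40, 9.04, 8.86 and 8.83 in HFD NiPKO. Replicate 1 lay within the chow range and the other 3 arrays lay below it. The log2 fold change was -0.42 (SE 0.12, adjusted p = 0.123) with replicate 1 and -0.54 (SE 0.10, adjusted p = 0.0383) without it.

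Srebf1 stood differently on that array. It read 7.35, 7.10, 7.21 and 7.24 in chow NiPKO and 6.89, 7.09, 6.99 and 6.93 in HFD NiPKO, where replicate 1 was the lowest and not the highest array. The groups were separate by a narrow margin, at a log2 fold change of -0.25 (SE 0.07, adjusted p = 0.145) with the array and -0.22 (adjusted p = 0.265) without it. Fads2 read 11.63, 11.65, 11.58 and 11.71 in chow NiPKO and 11.59, 11.55, 11.34 and 11.26 in HFD NiPKO, a log2 fold change of -0.21 (adjusted p = 0.204) with the array and -0.26 (adjusted p = 0.149) without it.

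Groups that did not overlap, with HFD below chow, were found for 2 of 9 members with all arrays (Srebf1 and Fads1), against 3.21% of all genes. Without replicate 1, with 3 HFD arrays, 6 of 9 members did not overlap, against 5.24% of all genes, the added ones being Fasn, Scd1, Fads2 and Elovl6. The log2 fold changes with all arrays were -0.15 for Acaca, -0.13 for Acacb, -0.18 for Elovl6 and -0.01 for Acly, with adjusted p between 0.484 and 0.953. Without replicate 1 they were -0.17, -0.17, -0.22 and -0.02 in the same order, with adjusted p between 0.468 and 0.930. Fitted on the 2 groups alone, Fads1 had an adjusted p of 0.0714, where 0.0947% of all genes passed. With the methods' t-test it had one of 0.235, where 0 genes passed.

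**Figure D3:**
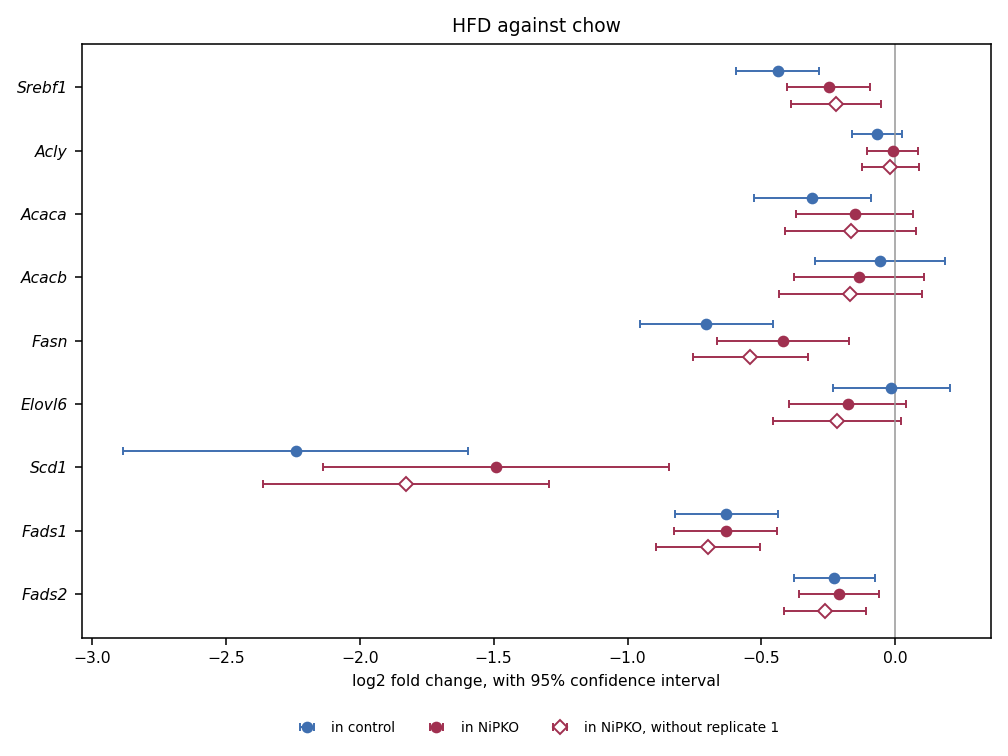
Log2 fold change of each measured member for HFD against chow in control kidney, in NiPKO kidney, and in NiPKO kidney without HFD NiPKO replicate 1, with 95% confidence intervals from the limma fit. Scd1 lies at -2.24 in control, -1.49 in NiPKO and -1.83 in NiPKO without that array.

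Averaged over the genotypes, with 8 arrays on each diet, 5 of 9 members were lower on the HFD at an adjusted p under 0.05, against 1.71% of all genes. They were Scd1 (-1.87, SE 0.22, limma adjusted p = 0.000518), Fads1 (-0.63, SE 0.06, adjusted p = 0.000359), Fasn (-0.56, SE 0.08, adjusted p = 0.00183), Srebf1 (-0.34, SE 0.05, adjusted p = 0.00212) and Fads2 (-0.22, SE 0.05, adjusted p = 0.0268). Without HFD NiPKO replicate 1, 5 of 9 were lower, against 1.66% of all genes, with Scd1 at -2.03, Fads1 at -0.66, Fasn at -0.62, Srebf1 at -0.33 (adjusted p = 0.00459) and Fads2 at -0.24 (adjusted p = 0.0133). All 8 HFD arrays lay below all 8 chow arrays for 2 of 9 members, Srebf1 and Fads1, against 0.343% of all genes, and without replicate 1 this held for 5 of 9, the same 2 with Fasn, Scd1 and Fads2, against 0.532%.

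The call of Fads2 rested on small margins. Its adjusted p was 0.0561 without chow control replicate 4, 0.0533 without chow NiPKO replicate 2, 0.0529 without chow NiPKO replicate 4, 0.0516 without HFD control replicate 2, 0.0618 without HFD NiPKO replicate 3 and 0.051 without HFD NiPKO replicate 4, at log2 fold changes between -0.19 and -0.22. Acaca (-0.23, adjusted p = 0.101), Acacb (-0.10, 0.627), Elovl6 (-0.10, 0.577) and Acly (-0.04, 0.606) did not pass, nor without HFD NiPKO replicate 1 (adjusted p between 0.126 and 0.608). This comparison shares its arrays with the 2 comparisons within a genotype, and the values are set side by side rather than as separate evidence.

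Whether the diet acted differently in the genotypes was tested by the interaction of genotype and diet. No member passed and none of the 22180 genes did in limma (0% called), while 1828 genes (8.24%) and 0 of 9 members had an unadjusted p under 0.05. Leaving out HFD NiPKO replicate 1, no member or other gene passed in limma, and 0 of 9 members and 7.24% of all genes had an unadjusted p under 0.05. With the other settings of the fit 0 genes passed an adjusted p of 0.05, apart from 1 gene among genes above the median level. Leaving out chow control replicate 4 gave 2 genes, and no member passed with any single array left out. The difference between the diet effects (NiPKO minus control, log2) was 0.75 for Scd1 (95% confidence interval -0.16 to 1.66), 0.29 for Fasn (-0.06 to 0.64), 0.19 for Srebf1 (-0.03 to 0.41) and 0.00 for Fads1 (-0.28 to 0.27). Leaving out HFD NiPKO replicate 1, the difference was 0.41 for Scd1 (-0.32 to 1.14), 0.16 for Fasn (-0.13 to 0.46), 0.22 for Srebf1 (-0.01 to 0.45) and -0.07 for Fads1 (-0.33 to 0.20). These intervals include 0 and also differences as large as a doubling for Scd1, so a missed threshold does not show equal responses.

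The genotype itself was compared on each diet. Members whose groups did not overlap are named, but the share of all genes without overlap was not counted for these comparisons. On chow no member passed an adjusted p under 0.05, while 1.28% of all genes did. An unadjusted p under 0.05 was found for 2 of 9 members and for 12.5% of all genes. At the thresholds of the methods 1 of 9 members was called, against 4.42% of all genes. This was Fads1, at 10.54 to 10.95 in chow NiPKO and 10.34 to 10.48 in chow control, without overlap, a log2 fold change of 0.27 (SE 0.09, adjusted p = 0.196).

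Acly was the other member below an unadjusted p of 0.05 on chow. It read 9.31 to 9.37 in chow NiPKO and 9.41 to 9.48 in chow control, also without overlap, at -0.11 (SE 0.04, adjusted p = 0.319), and its range within a group was under 0.1. Scd1 (-0.22, 95% confidence interval -0.86 to 0.43), Fasn (0.10, -0.15 to 0.34) and Srebf1 (-0.13, -0.28 to 0.03) had intervals that include 0.

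On the HFD no member passed an adjusted p under 0.05, against 0.825% of all genes, nor did one without HFD NiPKO replicate 1, against 0.302%. An unadjusted p under 0.05 was found for 3 of 9 members and for 10.8% of all genes. The same 3 met the thresholds of the methods, against 3.72% of all genes, namely Fasn and Fads1 with higher values in NiPKO and Acacb with lower ones. Without that array the count at these thresholds was 1 of 9, against 3.87% of all genes, and the member was Acacb.

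The values of Fasn, at 9.40, 9.04, 8.86 and 8.83 in HFD NiPKO, lay above the highest HFD control array at 8.79. Its log2 fold change was 0.38 (SE 0.12, adjusted p = 0.189), and 0.26 (adjusted p = 0.399) without replicate 1. Fads1, at 9.89 to 10.26 against 9.70 to 9.85, also did not overlap, with 0.27 (adjusted p = 0.247) and without replicate 1 0.20 (adjusted p = 0.502). Scd1 moved most with the 1 array, from 0.53 (95% confidence interval -0.12 to 1.17) to 0.19 (-0.34 to 0.73).

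Acacb ran the other way, at 6.77 to 6.98 in HFD NiPKO and 7.08 to 7.36 in HFD control, with a log2 fold change of -0.31 (SE 0.11, adjusted p = 0.300), and -0.35 (adjusted p = 0.363) without replicate 1. For this gene replicate 1 was the highest NiPKO array, so leaving it out widened the difference.

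Marker lists of other cell types stood beside these genotype values as follows. The adipocyte list median for NiPKO against control was 0.25 on HFD, and 0.07 without replicate 1. At an adjusted p under 0.05, 1 of 13 adipocyte genes was higher on HFD either way, against 0.825% and 0.302% of all genes. On chow 1 of 6 collecting duct genes was lower either way, against 1.28% and 1.13%. Averaged over the diets 1 adipocyte gene was higher and 1 collecting duct gene lower, against 2.68% of all genes. The mean of 6 hepatocyte genes was 8.33 to 8.50 in chow control and 8.52 to 8.56 in chow NiPKO, and 8.32 to 8.40 in HFD control and 8.46 to 8.55 in HFD NiPKO, so that the genotypes did not overlap on either diet. Their summed level (log2) was 13.4 to 13.7 and 13.8 to 13.9 on chow, and 13.1 to 13.4 and 13.5 to 13.6 on HFD. The transthyretin gene Ttr had the widest difference of the 6 (0.53 on chow and 0.55 on HFD, adjusted p = 0.0658 and 0.0693), and none of the 6 passed on either diet, while 1 of 6 was higher averaged over the diets. The leukocyte list, with a median of 0.18 on HFD and 0 of 6 genes passing, had means of 5.66 to 6.01 in HFD control and 5.94 to 6.05 in HFD NiPKO, which overlapped. The part of these cell types in the genotype values was not tested.

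**Figure D4:**
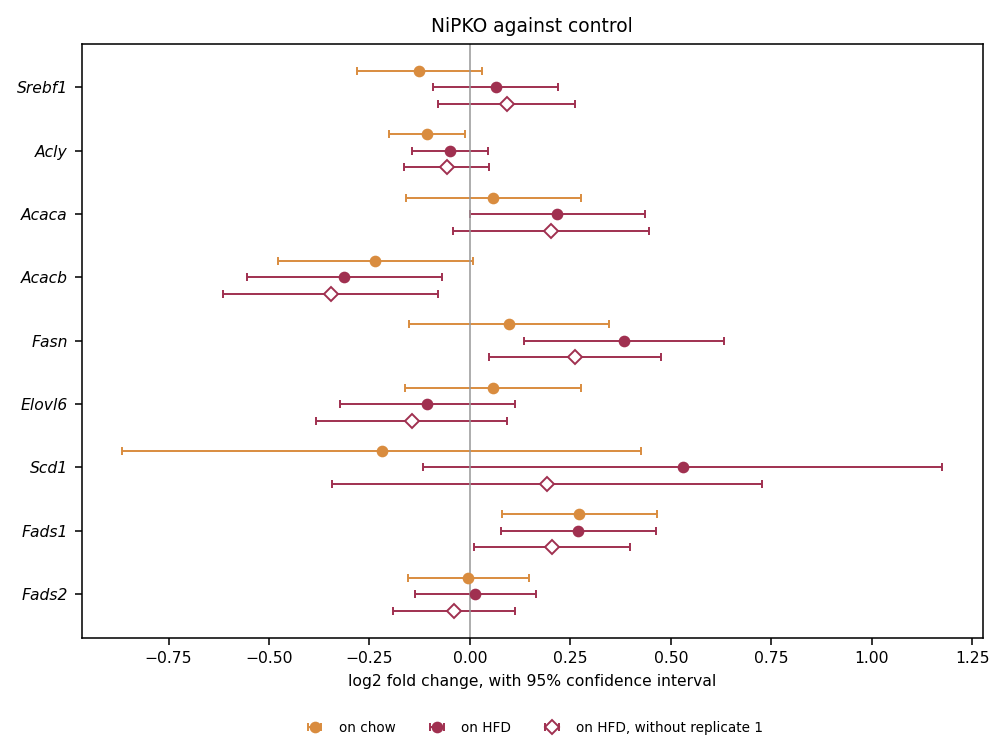
Log2 fold change of each measured member for NiPKO against control on chow, on HFD, and on HFD without HFD NiPKO replicate 1, with 95% confidence intervals from the limma fit. Fads1 lies at 0.27 on both diets with all arrays, and Scd1 moves from 0.53 to 0.19 when that array is left out.

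Averaged over the diets, Fads1 was higher in NiPKO than in control kidney by 1.21-fold (log2 fold change 0.27, SE 0.06, limma adjusted p = 0.0305), 1 of 9 members against 2.68% of all genes called in either direction. Without HFD NiPKO replicate 1 the value was 0.24 and the adjusted p 0.0627, so that 0 of 9 members passed, against 2.29% of all genes. The adjusted p was also above 0.05 without chow control replicate 3 (0.0656) or 4 (0.056), chow NiPKO replicate 4 (0.0516), HFD control replicate 2 (0.0628) or 4 (0.0623), and HFD NiPKO replicate 2 (0.0645), with values between 0.26 and 0.27. Acacb differed by -0.27 (SE 0.08, adjusted p = 0.0981) and Fasn by 0.24 (SE 0.08, adjusted p = 0.168), or by -0.29 and 0.18 without HFD NiPKO replicate 1 (adjusted p = 0.110 and 0.257). Without chow NiPKO replicate 1 the adjusted p of Acacb was 0.0117 at -0.33. Srebf1 (-0.03), Fads2 (0.00) and Elovl6 (-0.02) lay near 0, and at -0.02, -0.02 and -0.04 without HFD NiPKO replicate 1.

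The 4 group means stood in 4 different orders over the 9 members. For Scd1, Srebf1 and Fads2 the order ran from chow control through chow NiPKO and HFD NiPKO to HFD control. For Fads1, Fasn and Acaca it ran from chow NiPKO through chow control and HFD NiPKO to HFD control, so that HFD control was the lowest group in these 6 genes. For Acly and Acacb it ran from chow control through HFD control and chow NiPKO to HFD NiPKO, and for Elovl6 from chow NiPKO through chow control and HFD control to HFD NiPKO. Without HFD NiPKO replicate 1 the order of Fads2 turned, with HFD NiPKO at 11.38 below HFD control at 11.42, and the other 8 orders stood.

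Between neighbours in these orders, 1 step passed an adjusted p under 0.05 with all arrays, that from chow control to HFD NiPKO in Fads1 (10.4 ± 0.06 against 10.1 ± 0.17, SD, n = 4, limma adjusted p = 0.0489, a comparison that called 2.29% of all genes). Without replicate 1 this step was -0.43 (adjusted p = 0.0261), and 2 more passed. They were the step from chow NiPKO to HFD NiPKO in Scd1 (adjusted p = 0.00614) and that from chow control to HFD NiPKO in Fasn (-0.44, adjusted p = 0.0371).

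Correlations between the members were taken over the 16 arrays as descriptions. Among Srebf1, Fasn, Scd1, Fads1 and Fads2, which were lower on the HFD and so share the difference between the diets, the 10 pairwise Pearson correlations ran from 0.65 to 0.89. The 5 pairs of Acaca with these genes ran from 0.60 to 0.78, and the 21 pairs that hold Acly, Acacb or Elovl6 from -0.01 to 0.64. Without HFD NiPKO replicate 1 the 3 ranges were 0.76 to 0.91, 0.59 to 0.78 and 0.01 to 0.64.

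Taken as deviations from the group means, the same 3 sets of pairs ran from -0.30 to 0.69, from 0.22 to 0.45 and from 0.10 to 0.68, and these ranges overlapped. Scd1 with Fads1 was at 0.69, Acacb with Fads1 at 0.68, Elovl6 with Scd1 at 0.57, Srebf1 with Scd1 at 0.06 and Srebf1 with Fasn at -0.30. With HFD NiPKO replicate 1 left out these 5 were 0.56, 0.68, 0.56, 0.34 and -0.17. The correlations carry no test.

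The genes most like Scd1 over the 16 arrays were Insig1 (r = 0.91), Sqle (0.90), Tmem26 (0.90), Fads1 (0.89) and Bpnt1 (0.89). Those most like Fads1 were Fdps (0.94), Tmem26 (0.93), Tmed6 (0.93), Gnmt (0.92) and Tmem97 (0.91). For Srebf1 they were Insig1 (0.88), Acsm1 (0.87), Map7 (0.87), Asah2 (0.85) and Bcar1 (0.85), and for Fasn they were Acox2 (0.94), Tmed6 (0.93), Evc (0.91), Aadat (0.91) and Cacul1 (0.91). With HFD NiPKO replicate 1 left out, these 20 correlations lay between 0.84 and 0.96. Insig1, Sqle and Fdps belong to the lists of SREBP retention and sterol synthesis described next.

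Genes that control SREBP were counted as a list of 6, for the escort, retention and cleavage of the precursor. For HFD against chow averaged over genotypes 2 of 6 were lower at an adjusted p under 0.05 and none higher, with a list median of -0.08 beside 0.01 for all genes. Insig1, which holds the SREBP escort in the endoplasmic reticulum and is itself an SREBP target, fell by 0.58 on the log2 scale (adjusted p = 0.00243). It had a mean of 9.27 ± 0.15 in chow control and 8.51 ± 0.21 in HFD control, and of 9.11 ± 0.21 and 8.71 ± 0.22 in the NiPKO groups (SD, n = 4), so that it fell in control (adjusted p = 0.0145) and did not pass in NiPKO (adjusted p = 0.172). Srebf2, the gene of the sterol-directed SREBP2, fell by 0.27 (adjusted p = 0.0120), and Scap, the escort, was at -0.13 (adjusted p = 0.289).

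Of 9 other regulators of lipogenesis, 1 was lower and none higher, and the list median was 0.01. Mlx, the partner of the carbohydrate-responsive factor ChREBP, fell by 0.23 (adjusted p = 0.0261). Mlxipl, which encodes ChREBP, was at 0.13 (adjusted p = 0.341) and the coactivator gene Ppargc1b at 0.11 (adjusted p = 0.323).

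The 9 measured genes that supply citrate, acetyl-CoA and NADPH did not move as a group, with 1 lower, 2 higher and a median of -0.05. Slc25a1, the citrate carrier of the inner mitochondrial membrane, fell by 0.18 (adjusted p = 0.00537). Pklr, the pyruvate kinase of liver and red cells, rose by 0.58 (adjusted p = 0.00116), from 8.598 ± 0.10 to 9.34 ± 0.30 in control and from 8.79 ± 0.06 to 9.21 ± 0.11 in NiPKO. Aacs, which activates acetoacetate for lipid synthesis, rose by 0.36 (adjusted p = 0.0416), a call that was lost without HFD NiPKO replicate 1 (adjusted p = 0.0758).

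Of 11 further genes of chain elongation 1 was higher, Hacd1, a dehydratase of the elongation cycle, at 0.31 (adjusted p = 0.00268). It passed in NiPKO (0.48, adjusted p = 0.00852, and 0.0230 without HFD NiPKO replicate 1) and not in control (0.14, adjusted p = 0.397), and the interaction test called no gene. Elovl2 and Hsd17b12 did not pass, at -0.14 and 0.08. Elovl7, an elongase of long chains, was lower in NiPKO than in control on chow by 0.24 (adjusted p = 0.0237), beside a diet value of -0.03.

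Among the 9 other desaturases and electron donors 1 was lower, Degs1, the desaturase that completes ceramide, at -0.20 (adjusted p = 0.0282, and 0.0505 without HFD NiPKO replicate 1). Fads3 (-0.15, adjusted p = 0.0733), next to Fads2 on the chromosome, and Cyb5r3 (-0.11, adjusted p = 0.0902), the cytochrome b5 reductase, did not pass. None of 6 genes of mitochondrial fatty acid synthesis passed, where Cbr4 was at -0.12, Mecr at -0.13 and Acsf3 at -0.04 (adjusted p = 0.0973, 0.106 and 0.647 in limma), and Cbr4 and Mecr were below an unadjusted p of 0.05.

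Genes that place fatty acids into glycerolipids went both ways, with 2 of 6 higher and 1 lower. Agpat2 (0.21, adjusted p = 0.00805) and Dgat2 (0.19, adjusted p = 0.00805), an acyltransferase of phosphatidate and one of triglyceride synthesis, rose. Gpam, the first acyltransferase of that route and a known SREBP1 target, fell by 0.24 (adjusted p = 0.04999, just under the threshold).

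Of the sterol synthesis genes under SREBP2, 10 of 16 were lower and none higher, with a median of -0.26. Msmo1 (-0.64), Sqle (-0.63) and Fdps (-0.59), enzymes of the demethylation, epoxidation and prenyl steps, had adjusted p of 0.00284, 0.00233 and 0.00137. Dhcr7, the last reductase of cholesterol synthesis, was at -0.27 (adjusted p = 0.00448). For NiPKO against control Dhcr7 was also lower, at -0.28 on chow and -0.29 on HFD (limma adjusted p = 0.0429 and 0.0458). Fdps, Sqle and Msmo1 read higher in NiPKO on HFD (0.32, 0.37 and 0.36) and did not pass. Without HFD NiPKO replicate 1, 0 of 16 sterol genes passed for the genotype on either diet. For the diet averaged over genotypes, 11 of 16 were lower with that array left out. The counts of the other pathway lists were then as given except for Aacs and Degs1. The members' own list thus stood at 5 of 9 lower with a median of -0.23, next to 10 of 16 for the sterol list, 2 of 6 for SREBP control and at most 1 lower in each of the other pathway lists, and of the marker lists the hepatocyte list had 2 of 6 lower.

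**Figure D5:**
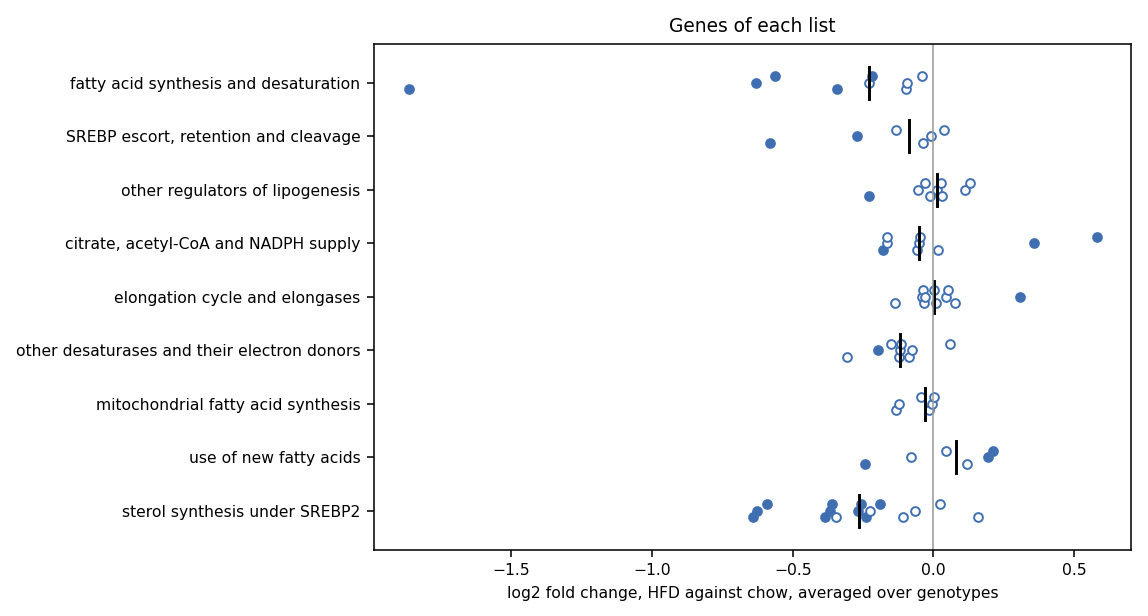
Log2 fold change of each measured gene for HFD against chow averaged over genotypes, by list, with filled points at a limma adjusted p under 0.05 and a bar at the list median. The fatty acid synthesis and desaturation genes have a median of -0.23 and the sterol synthesis genes of -0.26, and Scd1 lies at -1.87.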

How the data were processed

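The authors deposited normalized log2 values of 41345 probe sets on 16 arrays. The submitters' notes name Partek with no version, and no source used here states the background correction or the normalization. The log2 scale was read from the range, 2.07 to 13.8. Scanner intensities were not used here, so signal over background is unknown, and precision is limited by the number of arrays. Groups came from the sample labels.

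Of the probe sets, 23521 carried 1 gene symbol in the platform table and 1820 several. The rest had none there. Only the first were used, and a gene was represented by its brightest probe set, which left 22180 genes. There was no filter on dim values.

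Group means of the 4 groups were fitted in one model by limma 3.58.1 (lmFit, eBayes; R 4.3.3), with Benjamini-Hochberg adjustment over 22180 genes. Calls were made at an adjusted p under 0.05 and at the methods' thresholds, which ask for a 1.2-fold change and p under 0.05 without adjustment. The paper names an unpaired Student's test for its data, tried as an alternative. The fit was tested on simulated data.

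The members and gene lists were chosen with earlier results of these data known. Named genes are all members, the 3 genes of each list with the smallest p for HFD against chow averaged over genotypes, list genes with an adjusted p under 0.05 in a comparison of 2 groups (at most 6 a list), and the 5 genes most correlated with Srebf1, Fasn, Scd1 and Fads1, predicted genes left out. Alternatives were the 2 groups alone, quantile normalization, median centring, genes above the median level, array weights, a robust prior with a trend, probe sets averaged for each gene, all probe sets as features, a fold over 1.5, a block for the replicate number, and each array left out.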

Additional observations from a re-analysis of the deposited data

Results flagged for a closer look

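In groups of 4 arrays, the gap between an extreme array and its neighbour was compared with the range of the group, and 8 of 92 groups of values were past Dixon's critical value at the 95% level, where chance alone gives about 1 in 20. Among the members, Fasn was low on chow control replicate 1 at 9.27 (the others 9.37 to 9.38) and on HFD control replicate 2 at 8.31 (8.73 to 8.79). Fads2 was low on chow control replicate 3 at 11.56 (11.67 to 11.69), and Acaca was low on HFD NiPKO replicate 4 at 7.10 (7.25 to 7.27).

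The remaining 4 were adipocyte values on HFD NiPKO replicate 1. The mean of the adipocyte list was 6.78 (6.03 to 6.14 on the other arrays of the group), Plin1 was 6.34 (5.53 to 5.62), Cidea was 6.09 (4.26 to 4.43) and Ucp1 was 7.96 (4.66 to 4.88).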

How the results depend on the processing

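Over 10 other settings (8 for averages and the interaction), 556 of 576 member fold changes kept their direction and their side of the threshold, while 5 reversed, 7 newly passed and 8 no longer passed. With single arrays left out 950 of 1008 kept both, while 39 reversed, 3 newly passed and 16 no longer passed. The number of members at an adjusted p under 0.05 for HFD against chow in control was 2 when only the 2 groups were fitted and 0 by the methods' t-test, where 14 and 0 of all genes passed against 125. In NiPKO it was 0 by either, where 21 and 0 of all genes passed against 58. In NiPKO that count was 2 with quantile normalization, median centring, genes above the median level or array weights, where Scd1 was added and 78, 57, 308 and 125 of all genes passed against 58. For NiPKO against control averaged over diets it was 2 among genes above the median level, with Acacb added, where 7.66% of the genes passed against 2.68%. At the thresholds of the methods, NiPKO against control on chow gave 0 with median centring, and averaged over diets it gave 1 with quantile normalization or median centring. With a fold over 1.5 the counts were 0 for NiPKO against control on chow, on HFD and averaged, 3 for HFD against chow in control and 2 averaged. The share of all genes was not counted at the methods' thresholds or at this fold in these settings. Why the counts moved was not tested for any setting.

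Whether the replicate numbers pair the arrays is not given by the labels and could not be settled from the values. Same-numbered arrays of different groups had correlations of their deviations between -0.11 and 0.17 over 24 pairs. The mean was 0.017, against -0.006 for arrays of different numbers, and 7 of 16 arrays were closest to their own number. With the replicate block, 2 members were called at an adjusted p under 0.05 for HFD against chow in NiPKO, against 0.149% of all genes. For NiPKO against control averaged over diets 2 were called, against 2.39% of all genes. In the interaction 1 member met the methods' thresholds, for which the share of all genes was not counted with this block. An unadjusted p under 0.05 alone was found for 1 of 9 members and for 8.51% of all genes.

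With single arrays left out, the count at an adjusted p under 0.05 ran from 0 to 3 for HFD against chow in NiPKO. The 3 were found without HFD NiPKO replicate 1, where 0.266% of all genes passed. For NiPKO against control averaged over diets it ran from 0 to 2. The 2 were found without chow NiPKO replicate 1, where 2.43% of all genes passed. The count at the methods' thresholds ran from 1 to 4 for NiPKO against control on HFD, from 1 to 3 averaged over diets and from 0 to 1 in the interaction. At these thresholds the share of all genes was counted only with HFD NiPKO replicate 1 left out.

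Fold changes that crossed 0 lay near it and passed no threshold. Elovl6 was at 0.018 for HFD against chow in control with quantile normalization. For NiPKO against control averaged over diets Fads2 was at -0.0017 with quantile normalization and -0.012 with median centring. The interaction of Fads1 was 0.014 with median centring and 0.021 with array weights. With single arrays left out, NiPKO against control on chow ran from -0.013 to 0.12 for Acaca, -0.0047 to 0.14 for Elovl6, -0.34 to 0.0022 for Scd1 and -0.034 to 0.016 for Fads2, and on HFD from -0.039 to 0.071 for Fads2. Averaged over diets it ran from -0.055 to 0.017 for Elovl6, -0.013 to 0.27 for Scd1 and -0.021 to 0.034 for Fads2. HFD against chow in control ran from -0.13 to 0.032 for Acacb and -0.077 to 0.068 for Elovl6, and in NiPKO from -0.019 to 0.0024 for Acly. The interaction ran from -0.17 to 0.044 for Acacb, -0.068 to 0.084 for Fads1 and -0.035 to 0.075 for Fads2.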
